A study of Homo sapiens with 6 samples.

Results

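Genes whose current symbol begins with ZNF followed by a digit make up the set described here, and 116 such genes were measured at 142 of the 9169 spots analysed, out of 6255 named genes. Of the 116, 95 had 1 spot and 21 had more than 1, and none was left out for low signal. The symbol does not guarantee a protein: 113 are protein-coding, 2 are the antisense RNAs ZNF205-AS1 and ZNF667-AS1, and 1 is the pseudogene ZNF271P. RNA came from SH-SY5Y, an established human neuroblastoma line, collected 7 days after transfection, with geneticin (500 µg/ml) used to select transfected cells. In the control group 3 samples received the pEGF-C2 vector with no insert and GFP alone, and the 3 DN-TRF2 samples received pIRES2-EGFP carrying a dominant-negative form of TRF2, a telomere-binding protein of the shelterin complex. The groups thus differ in plasmid backbone as well as insert, and backbone and insert cannot be told apart. Per the labels the samples come from 3 independent experiments. Radiolabelled cDNA of each sample was hybridized in 1 channel to an array of 9600 cDNA spots, and the comparison asks which ZNF genes differ between DN-TRF2 and control cells.

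ZNF is the symbol given to human zinc finger genes without a more specific name, most of which encode chains of C2H2 fingers, small folds that each hold a zinc ion between paired cysteines and histidines and contact a few bases of DNA. Many also carry a KRAB domain, which recruits the corepressor TRIM28 and, through it, the histone methyltransferase SETDB1, HP1 proteins and deacetylases, and KRAB zinc finger proteins are best known for silencing transposable elements. Others carry a SCAN domain, which pairs proteins with one another, or neither domain. Several with neither domain act outside transcription, in ribosome assembly, RNA binding or chromosome segregation.

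The ZNF genes form long tandem clusters in the genome, and 55 of the 116 lie on chromosome 19 and 14 on chromosome 16 (RefSeq, GRCh38.p14). Promoter entries were matched for 102 of the 116 genes, and the 250 bases upstream of each start site were searched on both strands for short motifs. The GGGCGG letters of the GC box stood upstream of 61.8% of the 102 genes, against 62.1% of protein-coding genes with an entry. CCAAT was present in 53.9% against 40.2%, and CTTCCG, the core bound by ETS family factors, in 43.1% against 25.7%. TATAAA was found in 2.94% against 11.9%. TTAGGG, the unit of the telomere repeat, was present in 10.8% of the ZNF windows and 10.3% of the protein-coding ones. Over all 27305 genes with an entry the shares were 46.2% for GGGCGG, 37.0% for CCAAT, 19.4% for CTTCCG, 13.05% for TATAAA and 9.65% for TTAGGG. These matches describe letters in a window and are not binding sites.

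The upstream windows of 5 members are shown, the first 4 picked by their p in these data and the fifth because it holds a telomere repeat unit. ZNF684, ZNF625 and ZNF256 had the smallest p among members whose groups did not overlap, ZNF330 the smallest p among members with a lower DN-TRF2 mean, and ZNF485 the largest difference among the members with TTAGGG. All are 5′ to 3′ on the gene's strand in GRCh38.p14 from RefSeq, and capitals mark the telomere unit (TTAGGG), the GC box (GGGCGG), the CCAAT box and the ETS core (CTTCCG) or the reverse complement of each, which can share bases where they abut. ZNF684 lies at chr1:40531387-40531636 on the plus strand, ZNF625 at chr19:12156735-12156984 on the minus strand, ZNF256 at chr19:57947707-57947956 on the minus strand, ZNF330 at chr4:141220645-141220894 on the plus strand and ZNF485 at chr10:43606188-43606437 on the plus strand.
ZNF684: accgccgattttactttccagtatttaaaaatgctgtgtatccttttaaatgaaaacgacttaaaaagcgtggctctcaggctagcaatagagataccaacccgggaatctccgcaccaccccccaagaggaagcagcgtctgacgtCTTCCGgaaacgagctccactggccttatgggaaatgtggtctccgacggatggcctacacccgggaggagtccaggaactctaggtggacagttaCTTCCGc
ZNF625: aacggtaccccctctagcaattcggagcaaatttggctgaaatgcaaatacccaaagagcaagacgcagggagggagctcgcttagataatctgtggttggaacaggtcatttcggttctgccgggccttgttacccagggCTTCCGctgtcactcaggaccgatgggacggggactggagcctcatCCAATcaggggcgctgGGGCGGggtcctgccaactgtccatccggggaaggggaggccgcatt
ZNF256: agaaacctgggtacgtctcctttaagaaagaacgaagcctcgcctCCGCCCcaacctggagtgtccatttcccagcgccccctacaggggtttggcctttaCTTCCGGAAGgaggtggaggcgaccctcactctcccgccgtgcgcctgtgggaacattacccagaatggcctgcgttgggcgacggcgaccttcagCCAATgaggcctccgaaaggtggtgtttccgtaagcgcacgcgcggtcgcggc
ZNF330: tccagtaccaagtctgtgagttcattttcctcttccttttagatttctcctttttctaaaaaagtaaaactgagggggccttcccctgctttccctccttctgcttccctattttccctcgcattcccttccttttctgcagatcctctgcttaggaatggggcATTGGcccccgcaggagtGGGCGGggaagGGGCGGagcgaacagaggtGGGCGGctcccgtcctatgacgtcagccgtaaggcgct
ZNF485: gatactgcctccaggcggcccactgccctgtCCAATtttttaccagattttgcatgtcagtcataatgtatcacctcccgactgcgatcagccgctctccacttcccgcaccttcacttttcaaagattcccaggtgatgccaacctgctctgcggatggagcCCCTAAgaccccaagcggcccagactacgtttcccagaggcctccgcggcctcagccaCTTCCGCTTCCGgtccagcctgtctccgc
CTTCCG or its complement occurred 2 times each in the windows of ZNF684, ZNF256 and ZNF485 and 1 time in that of ZNF625, and it was not in that of ZNF330, which held GGGCGG 3 times. As the windows were picked from these data, this says nothing on a link with direction. Over the 102 genes, 25 of 44 with CTTCCG and 31 of 58 without it had a higher DN-TRF2 mean.

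Before normalization the median intensity over all spots analysed ran from 480 to 712 on the 6 arrays, and over the 142 ZNF spots from 540 to 944. Only 3 ZNF spots lay at or under 10, the stand-in for no signal, on any array. TRF2 itself (TERF2) was not analysed here, which left the labels without a check on the targeted gene. Of 15 sympathoadrenal markers 9 were measured, and 8 of these, among them DBH, which makes noradrenaline, and the granule protein gene CHGB, lay above the median signal, with MYCN below it. Mean log2 level of that list ran from 9.88 to 9.98 on control arrays and from 9.98 to 10.03 on DN-TRF2 arrays. The 7 measured of 11 substrate-adherent mesenchymal markers ran from 8.86 to 9.10 on control and from 9.13 to 9.25 on DN-TRF2 arrays, without overlap. Single markers of that list were mixed: DN-TRF2 minus GFP control (log2) was 0.68 for TIMP1, 0.59 for S100A6 and 0.45 for LUM. For CD44 it was 0.088, for CAV1 0.056, for FN1 -0.029 and for VIM -0.20. The part of these markers in the ZNF results was not tested. The 3 measured of 6 blood markers (CD14, LYZ and HBB) ran from 8.40 to 8.49 and from 8.37 to 8.63. GFP control replicate 2 stood furthest from the rest: over all features it correlated with the other arrays at 0.955 to 0.974, while the other arrays correlated among themselves at 0.974 to 0.992.

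No ZNF gene passed the test, and members had higher and lower DN-TRF2 means in similar numbers. DN-TRF2 means were higher for 63 and lower for 53 of the 116 genes, that is 54.3% higher against 48.1% of all 6973 features (each named gene, or each spot without exactly 1 gene name). The median difference was 0.023 (log2, DN-TRF2 minus GFP control) against -0.0067 over all features. With arrays centred on their medians in place of quantile normalization, the family median turned to -0.017 and 55 members were higher, against a median of -0.030 over all features. Differences ran from -0.36 for ZNF71 to 0.79 for ZNF669. In size, 4 of the 116 members differed by more than 0.5, as did 87 of all 6973 features. At an adjusted p under 0.05 limma called 0 of 116 members in either direction and 0 of 6973 features (0%), with the smallest adjusted p at 1.00. At an unadjusted p under 0.05 there were 4 members, all higher, which is 3.45% of the family against 3.47% of all features in either direction and 2.47% in the higher direction.

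The arrays set a limit to what could be seen. The 95% interval of limma's difference had a median half-width of 0.38 over the 116 genes. For 109 of them the interval lay wholly within a 2-fold change on the offset log2 scale, so that a larger change in either direction lay outside it. It reached 2-fold for the other 7: ZNF684, ZNF625, ZNF215, ZNF669, ZNF271P, ZNF626 and ZNF296. Over all 6973 features the interval lay within 2-fold for 6853 and reached it for 120. The SD was larger among the control arrays for 82.8% of the ZNF genes (78.3% of all features), with median SDs of 0.26 and 0.14.

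**Figure D1:**
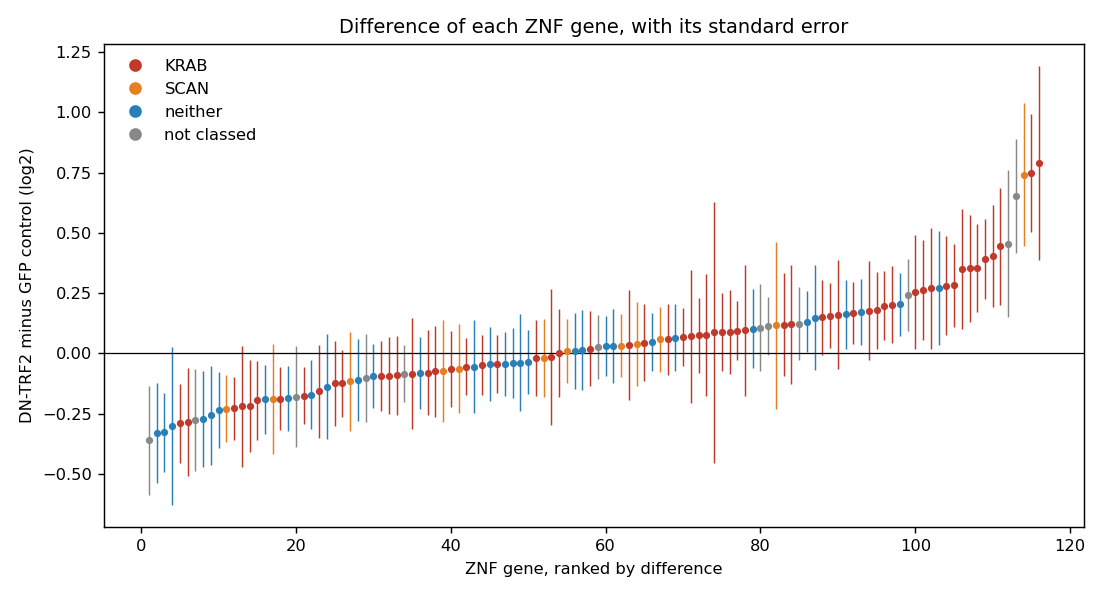
Difference between DN-TRF2 and GFP control (log2, y axis) for the 116 ZNF genes ranked from lowest to highest (x axis), with limma standard errors as bars and colours for domain class. Values run from -0.36 to 0.79, and 53 points lie below 0 and 63 above it.

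ZNF684, a KRAB gene, had the smallest p of the family. Its normalized log2 intensity was 9.83, 10.49 and 10.92 on GFP control replicates 1 to 3 and 11.25, 11.07 and 11.16 on DN-TRF2 replicates 1 to 3. The DN-TRF2 arrays lay close together and all above the controls, which were widely spread with replicate 1 lowest. The difference was 0.75 ± 0.24 (SE, n = 3 arrays per group), a fold of 1.68, with limma unadjusted p = 0.0136 and adjusted p = 1.00. It came to 0.45 without GFP control replicate 1.

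ZNF625, a finger gene in a chromosome 19 cluster, measured 9.42, 8.68 and 9.68 under GFP alone and 10.04, 9.84 and 9.86 under DN-TRF2. Again the groups did not overlap, and here control replicate 2 was the low one. Its difference was 0.65 ± 0.24 (limma unadjusted p = 0.0222, adjusted p = 1.00). It fell to 0.36 when GFP control replicate 2 was left out. ZNF256, a KRAB gene, measured 7.87, 8.36 and 8.24 in controls and 8.37, 8.57 and 8.71 in DN-TRF2 cells. The highest control and the lowest DN-TRF2 array were nearly level. The difference was 0.39 ± 0.17 (limma unadjusted p = 0.0423, adjusted p = 1.00). Leaving out GFP control replicate 1 brought it to 0.25 (limma unadjusted p = 0.139).

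ZNF215, a SCAN gene of the imprinted domain tied to Beckwith-Wiedemann syndrome, measured 9.28, 8.63 and 9.81 in controls and 10.37, 9.97 and 9.61 in DN-TRF2 cells. The groups overlapped, since control replicate 3 lay above DN-TRF2 replicate 3. Its difference of 0.74 ± 0.30 had a limma unadjusted p of 0.0346 and an adjusted p of 1.00. The difference came to 0.43 without GFP control replicate 2 and to 0.31 with array weights. The next places on the higher side went to KRAB genes whose groups overlapped. ZNF669 differed by 0.79 ± 0.40, with control values of 9.12, 7.58 and 9.41, of which replicate 2 is far the lowest. The difference was 0.22 without that array. ZNF350, known as ZBRK1, a partner of BRCA1 that represses damage-response genes, differed by 0.40 ± 0.21, or 0.20 without that array. ZNF101 differed by 0.44 ± 0.24, or 0.21 without it, 0.68 without control replicate 3 and 0.12 with array weights. ZNF485, whose control values were 10.56, 10.76 and 11.07 against 10.86, 11.35 and 11.25, differed by 0.35 ± 0.18, or 0.23 with GFP control replicate 1 left out.

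On the lower side no member reached an unadjusted p of 0.05. ZNF330, which encodes a nucleolar protein, measured 10.26, 10.12 and 9.83 in controls and 9.97, 9.70 and 9.56 in DN-TRF2 cells. It was lower in DN-TRF2 cells at each replicate number, although the groups overlapped. The difference was -0.33 ± 0.16, with limma unadjusted p = 0.0785 and adjusted p = 1.00. The KRAB genes ZNF44 (8.55, 8.68 and 8.54 against 8.43, 8.46 and 8.20) and ZNF175 (8.47, 8.51 and 8.39 against 8.22, 8.33 and 8.29) were the 2 lower members whose groups did not overlap. Their differences were -0.23 ± 0.13 and -0.18 ± 0.12, and that of ZNF44 came to -0.15 without DN-TRF2 replicate 3. The remaining named members, the KRAB gene ZNF557 (-0.29 ± 0.16), the SCAN gene ZNF232 (-0.23 ± 0.14), ZNF385D (-0.33 ± 0.21), ZNF71 (-0.36 ± 0.23) and ZNF574 (-0.24 ± 0.16), had overlapping groups. With GFP control replicate 1 left out, ZNF71 came to -0.14 and ZNF557 to -0.17. With replicate 2 left out in its place, ZNF385D came to -0.16, ZNF232 to -0.14 and ZNF574 to -0.13, while ZNF71 reached -0.54. ZNF385D also came to -0.18 without DN-TRF2 replicate 3, and ZNF71 to -0.23 without DN-TRF2 replicate 2. In all, groups did not overlap for 9 members, 7 higher and 2 lower, or 7.76% against 8.89% of all features (4.6% higher and 4.29% lower). Besides those above these were ZNF358, ZNF503, ZNF593 and ZNF655, all higher.

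**Figure D2:**
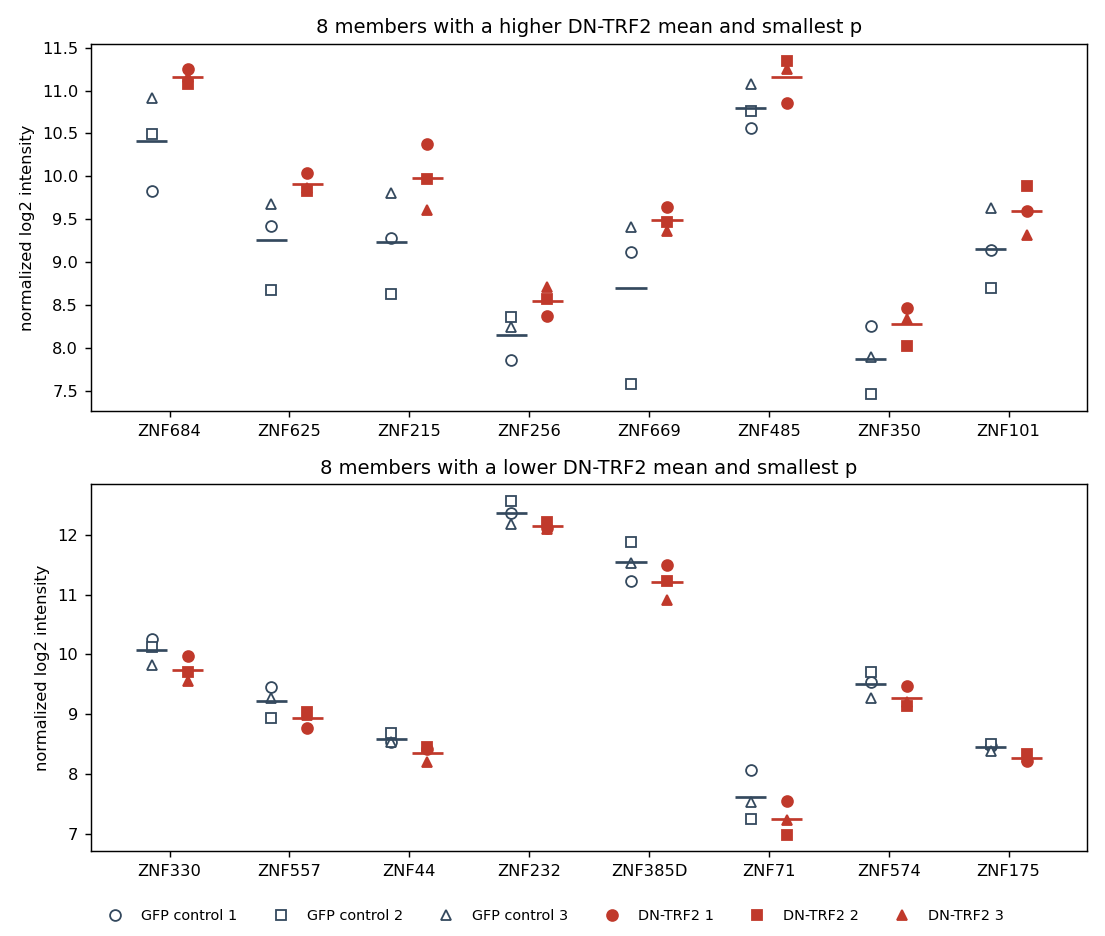
Normalized log2 intensity (y axis) on each array for the 8 members of smallest p with a higher DN-TRF2 mean (top) and the 8 with a lower one (bottom), open symbols for GFP control, filled for DN-TRF2, shapes for the replicate number and lines for group means. GFP control replicate 2 is the lowest point for ZNF625, ZNF215, ZNF669, ZNF350 and ZNF101, and for ZNF669 it lies at 7.58 against 9.12 and 9.41 on the other controls.

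Read by replicate number, the family had no common direction. DN-TRF2 replicate 2 lay above GFP control replicate 2 for 76 of the 116 genes, at a median difference of 0.12. At replicate number 1 the DN-TRF2 array was higher for 51 genes with a median of -0.061, and at number 3 for 49 genes with a median of -0.026. Of all 6973 features, 3348, 3246 and 3515 were higher at numbers 1, 2 and 3. Their medians were -0.013, -0.032 and 0.0024. All 3 numbers gave a higher DN-TRF2 value for 15 members (12.9%, against 11.5% of all features) and a lower one for 18 (15.5%, against 15.1%). With the replicate number as a block, 9 of the 116 members had a limma unadjusted p under 0.05, of which 7 were higher and 2, ZNF71 and ZNF330, lower. That compares with 5.36% of all 6973 features in the same fit, 239 of them higher and 135 lower. The smallest adjusted p that limma gave among the members was 0.868.

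The tilt towards higher values depended on the normalization, as given above, and on which arrays were kept and how they were weighted. GFP control replicate 2 was the lowest of the 6 arrays for 50 of the 116 ZNF genes (43.1%), against 27.2% of all features, and the highest for 21 (18.1% against 31.5%). The median ZNF deviation from the gene's own mean was -0.17 there, 0.068 and 0.050 for control replicates 1 and 3, and 0.0087, 0.019 and 0.023 for DN-TRF2 replicates 1 to 3. Over all features the same medians lay between -0.0059 and 0.017. All 3 DN-TRF2 medians lay inside the range of the controls. Without GFP control replicate 2 the family median turned to -0.039, against 0.0023 over all features, with 53 of 116 members higher, against 50.6% of all features. It was 0.053 with 74 higher without control replicate 1, against -0.0025 over all features. Without control replicate 3 it was 0.0071, against -0.022 over all features, and without DN-TRF2 replicate 3 it was 0.0050, against -0.0048. Array weights, with all 6 arrays kept, gave a family median of 0.0020, against 0.00090 over all features. With those weights 59 members were higher, against 50.4% of all features.

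**Figure D3:**
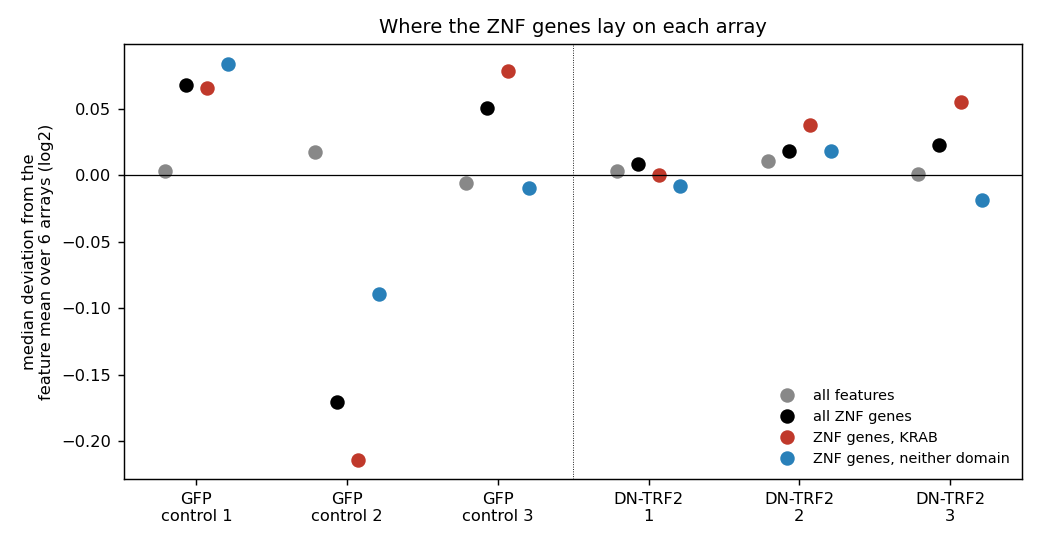
Median deviation from each feature's mean over the 6 arrays (log2, y axis) on each array (x axis), for all features and for sets of ZNF genes. The ZNF genes lie at -0.17 on GFP control replicate 2 and between 0.0087 and 0.068 on the other 5 arrays.

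Domain classes were assigned from general knowledge of the proteins, with 60 members classed as KRAB, 12 as SCAN with or without KRAB, 32 as having neither domain and 12 left unclassed. KRAB genes had a higher DN-TRF2 mean in 37 of 60 cases, at a median of 0.074, and SCAN genes in 6 of 12, at -0.0042. Genes with neither domain were higher in 13 of 32, at a median of -0.041. The difference between classes was not tested. KRAB genes lay lower on GFP control replicate 2, at a median deviation of -0.21, against -0.089 for genes with neither domain. Without that array 29 of 60 KRAB genes were higher, at -0.029, and 10 of 32 with neither domain, at -0.088. Counts by chromosome were 31 of 55 higher on chromosome 19 (median 0.040), 7 of 14 on chromosome 16 (-0.0029) and 25 of 47 elsewhere (0.020).

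**Figure D4:**
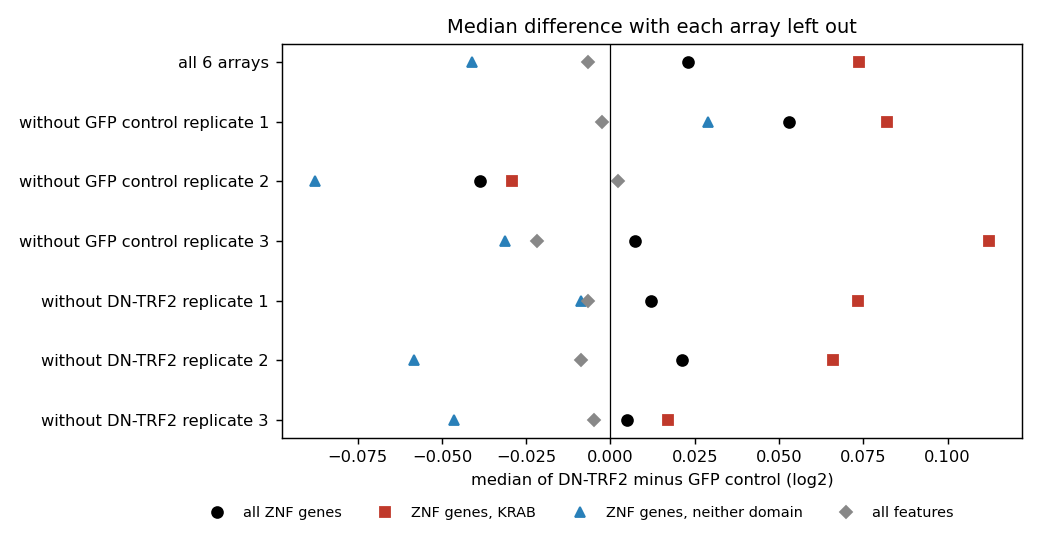
Median of DN-TRF2 minus GFP control (log2, x axis) with all 6 arrays and with each array left out (y axis), for all ZNF genes, KRAB genes, genes with neither domain and all features. The KRAB median is 0.074 with all arrays and -0.029 without GFP control replicate 2, and that of all ZNF genes goes from 0.023 to -0.039.

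Some members with a known cellular role, chosen after their values were seen, differed by less than their standard errors. ZNF207 encodes BuGZ, which brings the checkpoint protein BUB3 to kinetochores: over 3 spots it averaged 10.37, 10.14 and 10.25 in controls and 10.30, 10.22 and 10.33 in DN-TRF2 cells. The difference was 0.030 ± 0.12, the values of both groups were interleaved, and without GFP control replicate 2 it was -0.025. ZNF274, which brings SETDB1 to the ends of other zinc finger genes, measured 7.50, 6.97 and 7.59 against 7.36, 7.37 and 7.45, a difference of 0.040 ± 0.17. ZNF410, which activates the remodeller gene CHD4, differed by -0.043 ± 0.13. ZNF473, a factor of histone mRNA 3′ end processing, differed by 0.18 ± 0.20, and ZNF346, which binds double-stranded RNA, by 0.066 ± 0.14. ZNF622, a factor of large ribosomal subunit maturation, differed by -0.039 ± 0.14. ZNF706 gave the brightest spot of the family, at a mean of 14.54, and differed by -0.036 ± 0.13.

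ZNF503, also called NOLZ1, a repressor in the developing brain, was the member with most spots. Averaged over its 4 spots it measured 8.82, 8.49 and 8.83 in controls and 8.94, 8.86 and 8.86 in DN-TRF2 cells, so that the groups did not overlap. The difference was 0.17 ± 0.14 (limma unadjusted p = 0.242, adjusted p = 1.00), and all 4 spots were higher, by 0.080 to 0.23. It came to 0.066 without GFP control replicate 2 and to 0.40 with an offset of 1 in place of 50 before the logarithm. One of these spots was dim, with raw intensities of 6.1 to 31.2, which reach below the stand-in. ZNF655, whose product binds the signalling protein VAV1, was higher at 2 of its 3 spots, by 0.33 and 0.12, and differed by -0.11 at the other. Its average was 0.12 ± 0.12. It was -0.11 with the brightest spot alone or without spots of below-median signal, and 0.062 without GFP control replicate 2. ZNF3, a KRAB gene with 3 spots, averaged 0.096 ± 0.27, and its spots ran from -0.12 to 0.40. Leaving out GFP control replicate 2 turned it to -0.23, and leaving out replicate 1 raised it to 0.33.

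Among the 17 ZNF genes with 2 spots, the spots had the same sign in 1 (ZNF622), or 5.88%, against 48.4% of all 1057 named genes with 2 spots. This includes ZNF410 and ZNF205-AS1, each with 1 clone accession at both spots, where the differences were -0.22 and 0.13 and 0.073 and -0.021. In the limma fit over spots, 7 of the 142 member spots had an unadjusted p under 0.05, all higher. Among all 9169 spots analysed, 313 (3.41%) did so in either direction, and the higher ones were not counted apart. Of the 7 member spots 3 belonged to genes with a second spot, and in each the other spot was lower. The spots of ZNF235 differed by 0.41 ± 0.15 and by -0.28 ± 0.19, those of ZNF343 by 0.46 ± 0.18 and -0.12 ± 0.14, and those of ZNF273 by 0.42 ± 0.18 and -0.11 ± 0.16. A value given for a gene is thus that of the clone so annotated. Clones of related zinc finger genes can hybridize with each other's RNA, and the cDNA spots as described here do not tell a gene from its antisense RNA, which bears on ZNF205-AS1 (0.026 ± 0.13), ZNF205 (0.18 ± 0.16) and ZNF667-AS1 (0.24 ± 0.15).

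**Figure D5:**
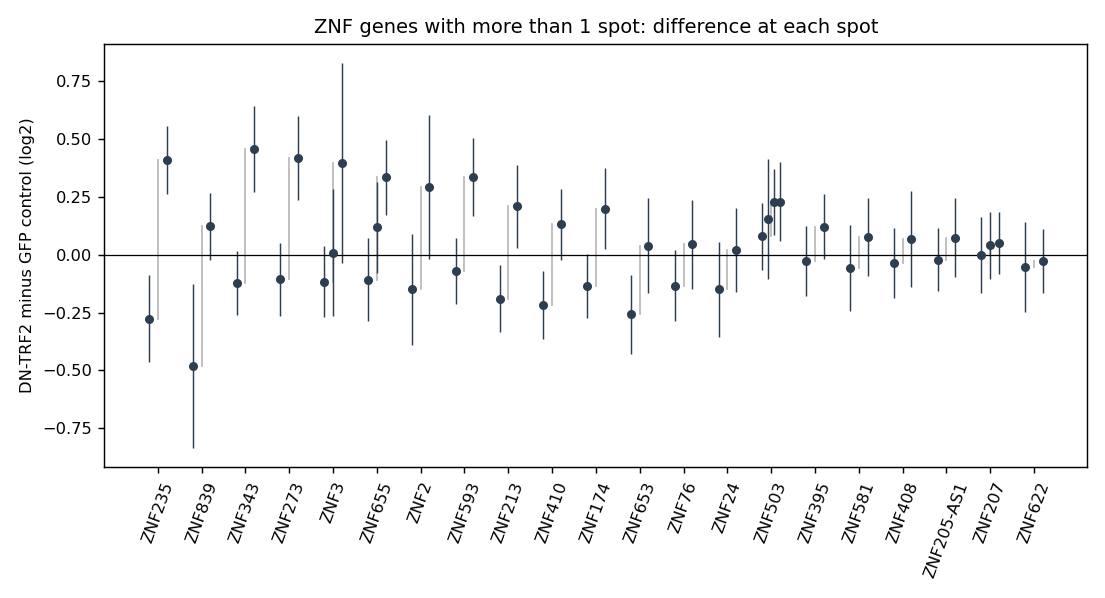
Difference between DN-TRF2 and GFP control (log2, y axis) at each spot of the 21 ZNF genes with more than 1 spot (x axis, ordered by the gap between spots), with limma standard errors as bars. Spots of the same gene lie on both sides of 0 for all but ZNF503 and ZNF622.

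Other C2H2 zinc finger genes, which carry names of their own such as KLF, ZBTB or ZSCAN, were listed by symbol, and 35 were measured. Of these 15 had a higher mean, at a median of -0.025, which turned to 0.011 without DN-TRF2 replicate 3. The share higher over all features was 48.1%, at a median of -0.0067. ZBTB5, which represses the p21 gene CDKN1A, measured 8.08, 8.13 and 7.95 in controls and 8.43, 8.46 and 8.53 in DN-TRF2 cells. The groups did not overlap, with a difference of 0.42 ± 0.12 and limma unadjusted p = 0.00757, but the adjusted p was 1.00. ZBTB38, a methyl-DNA binding protein, differed by 0.34 ± 0.16, ZBTB32 by -0.36 ± 0.24 and KLF13 by -0.19 ± 0.13. ZBTB32 came to -0.15 without GFP control replicate 1 and to -0.64 without replicate 3, and KLF13 to -0.10 without DN-TRF2 replicate 1. No gene of this list passed.

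Of 33 listed partners of KRAB repression 13 were measured, 3 with a higher and 10 with a lower mean, at a median of -0.046, and none passed. The share higher over all features was 48.1%, at a median of -0.0067. The list's spread between arrays, 0.091, is wider than its median in size. The list's median ran from -0.13 to -0.049 with 1 array left out, lowest without GFP control replicate 3, and was -0.028 with array weights. TRIM28, the corepressor that KRAB domains bind, measured 10.95, 11.48 and 10.59 in controls and 10.61, 10.84 and 10.61 in DN-TRF2 cells. The groups overlapped, and the difference of -0.32 ± 0.21 came to -0.083 without GFP control replicate 2 and to -0.53 without replicate 3. HDAC1, a deacetylase, differed by -0.33 ± 0.21, the HP1 gene CBX3 by -0.22 ± 0.16 and the histone methyltransferase gene SUV39H2 by -0.21 ± 0.13. With GFP control replicate 2 left out HDAC1 came to -0.56 (limma unadjusted p = 0.0033, adjusted p = 0.389) and CBX3 to -0.074. HDAC1 was -0.19 without replicate 3. SETDB1 was measured too and is counted among the 13.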

How the data were processed

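RNA of 6 SH-SY5Y samples (3 per group) was measured on 1-channel cDNA arrays. The authors deposited linear intensity values per spot; how the image was read, the background treated or arrays scaled is not given in the sources used here. The value 10 recurs as a stand-in for no signal. The 384 blank positions, each 25th spot, and 47 other spots holding 10 on each array were dropped. Gene names come from the platform annotation and were brought up to date by gene ID (8493 of 8517 annotated spots matched; 21 with several genes stayed unnamed).

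An offset of 50 was added, log2 taken, arrays quantile-normalized and spots of a gene averaged. The offset understates changes of dim spots. All 6973 features were tested with limma 3.58.1 under R 4.3.3 (two-sided; threshold 0.05 after Benjamini-Hochberg adjustment), and each spot in a second fit. The fit was tested on simulated data. The main fit did not pair the samples, and the replicate number entered only as a block in an alternative fit and in the counts by number. Deviations from the group mean correlated at 0.384, 0.289 and 0.243 between same-numbered arrays over all features. Between arrays of different number the correlations over all features were all negative, from -0.274 to -0.027. Over the ZNF genes the same-numbered values were 0.296, 0.447 and 0.071, and control replicate 3 correlated at 0.159 with DN-TRF2 replicate 1.

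Members and lists were chosen with earlier results of these data known. Named were up to 12 ZNF genes per direction at an unadjusted p under 0.05, filled to 8 by smallest p, genes with at least 3 spots and the 4 of smallest p per other list. ZNF genes of known role, those with several spots that disagree and those at the ends of the range were added after values were seen. The classes were assigned by hand, and SP100, SP140L and ZFP36, which lack C2H2 fingers but match the symbol pattern, were taken out of the other list after values were seen. Alternatives were other offsets, normalizations, filters on dim spots, array weights, the replicate block, the brightest spot and leaving out each array.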

Additional observations from a re-analysis of the deposited data

How the results depend on the processing

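Over 17 alternatives, 0 ZNF genes passed limma's adjusted p, and no member spot passed in the 16 that refit spots; the smallest adjusted p among the members was 0.389, without GFP control replicate 2. With the replicate block, the 4 members at a limma unadjusted p under 0.05 became 9 and no adjusted call changed. With 1 array left out they numbered 2 to 13, where the share of all features ran from 1.71% to 8.22%. Members without overlap then numbered 15 to 34, as fewer arrays overlap less, and the share of all features ran from 13.6% to 25.9%. The family median ran from -0.039 to 0.053, and it turned negative without GFP control replicate 2 and with arrays centred on their medians. Each value lay within 0.094, the spread between arrays, of the main value of 0.023. As that spread is wider than the median itself, this does not show that the sign held. The median of genes with more than 1 spot alone, an alternative chosen after seeing the data, also lay within that spread of the main value. Without spots of below-median signal fewer genes were tested, and 72 members remained, 37 of them higher, against 50.5% of all features higher. Groups did not overlap for 4 of these members, against 6.37% of all features. Of the 36 KRAB genes left 23 were higher. The median of the other C2H2 genes was 0.022 both without those spots and without the quartile of dimmest spots. Leaving out 1 array kept members with a higher mean at 53 to 74 and KRAB ones at 29 to 42. Signs reversed for named genes near 0: ZNF207 (-0.025 to 0.087 with 1 array left out, negative without GFP control replicate 2), ZNF655 (-0.11 with the brightest spot or without dim spots) and ZNF3, at -0.12 under those same settings, and -0.23 to 0.33 with 1 array left out (lowest without GFP control replicate 2, and -0.037 when DN-TRF2 replicate 3 is left out); the cause was not tested. How far signal over background limits dim spots cannot be measured, since blank positions hold a stand-in.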

Other observations

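The 11 ZNF genes with a TTAGGG unit in the upstream window were ZNF202, ZNF273, ZNF296, ZNF331, ZNF432, ZNF485, ZNF580, ZNF607, ZNF627, ZNF747 and ZNF839. Their DN-TRF2 means were higher in 3 and lower in 8, at a median difference of -0.064 (log2), against 53 of 91 higher and a median of 0.040 among ZNF genes without the letters. The differences ran from -0.30 ± 0.33 (SE) for ZNF296 to 0.35 ± 0.18 for ZNF485, and none of the 11 reached an unadjusted p of 0.05. Members with CCAAT upstream were higher in 34 of 55 cases at a median of 0.076, and those without it in 22 of 47 at -0.018. For CTTCCG the counts were 25 of 44 and 31 of 58, at 0.036 and 0.018. These splits were made after the data were seen and were not tested.

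Many ZNF genes sit side by side, and 13 pairs of measured members are direct neighbours among protein-coding genes. Of these pairs 9 had the same sign of difference, among them ZNF577 and ZNF649 (0.26 and 0.28) and ZNF670 and ZNF669 (0.090 and 0.79). ZNF136 lies between ZNF625 and ZNF44 and differed by 0.16, where its neighbours differed by 0.65 and -0.23. Neighbouring zinc finger genes are often close copies of each other, so that their spots may not be independent.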
